A study of Mus musculus with 12 samples.

Results

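The 9 genes described here encode contractile proteins and matricellular proteins whose transcription is known to depend on serum response factor (SRF) or on YAP and TEAD. They are Acta2, Tagln, Cnn1, Myl9, Actg2, Tpm1, Tpm2, Ccn1 (Cyr61) and Ccn2 (Ctgf), 9 of the 19938 genes with a probe set assigned to them alone. The members were taken by symbol, each with the single-gene probe set of highest mean over the arrays, and each had exactly 1 such probe set. RNA from 5 kinds of mouse cells was hybridised to 12 arrays (Affymetrix Mouse Gene 1.0 ST) in a study of how astrocytes become induced pluripotent stem cells (iPSCs). Values are log2 of the deposited intensity, and the level of a member is compared within the gene, because probe sets of different genes are not on 1 scale. Array medians and the summed intensities of marker lists cross genes, so they are rough guides only, and a sum weighs bright probe sets most.

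Astrocytes (3 arrays) were cultured from the cortex of Sox1-GFP reporter mice (Sox1+/-) at postnatal day 3 in DMEM/F12 medium that contained 10% FBS (fetal bovine serum), and sorted as negative for GFP before reprogramming. Day 6 cells (3 arrays) came from such cultures 6 days after retroviral Oct4, Klf4, Sox2 and c-Myc, in embryonic stem cell medium with 15% serum and 1000 U/ml leukaemia inhibitory factor (LIF), and were sorted as GFP-positive. Neural stem cells (2 arrays) were grown from Sox1+/- reporter telencephalon of embryonic day 12.5 to 14.5, without serum, in N2 medium with 20 ng/ml bFGF and 20 ng/ml EGF. The iPSCs made from astrocytes (2 arrays) carried Sox1-GFP, and the iPSCs made from mouse embryonic fibroblasts, MEFs (2 arrays), were the line iPS-MEF-Ng-20D-17 with a Nanog-GFP-IRES-Puro reporter. Both iPSC groups grew on mitomycin C-treated MEF feeders with 15% serum or serum replacement and 1500 U/ml LIF. The 4 groups with Sox1-GFP lack 1 intact copy of Sox1, and the MEF iPSCs are 1 named line. Serum, feeders, age and cell state go with the groups and cannot be told apart here. The submitters call the replicates biological without naming separate animals or cultures, so a p-value here reflects only how far these samples spread, technical spread included.

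The labels were set against defining markers. In every astrocyte array 14 of 15 astrocyte markers lay above the array median (S100b did not), and 11 of 11 pluripotency markers did so in both iPSC groups. Of all genes, 52.2% lay above the array median in every astrocyte array, and 51.4% to 52.2% in the other groups. All 11 neural stem cell markers lay above it in the neural stem cell arrays and in the astrocyte arrays alike, and 12 of 15 astrocyte markers did so in the neural stem cells, so these counts did not separate these groups. Gfap and Aqp4 did, with Gfap at 6.05 and 6.20 and Aqp4 at 5.69 and 5.58 in the neural stem cells against at least 12.10 and 10.25 in astrocytes. In the day 6 cells 5 of 11 pluripotency markers and 9 of 11 neural stem cell markers lay above the array median. Of the latter, 7 did so in each iPSC group too. At the threshold given below, 7 of these 11 were lower in day 6 cells than in neural stem cells and 0 higher. Their median log2 change was -2.06, and 5.94% of all genes were lower. The lists hold Pou5f1 (Oct4) and Sox2, which were also delivered by virus. Gfap was at 6.32 to 6.41 in day 6 cells against 12.10 to 12.65 in astrocytes. Array medians lay between 6.61 and 6.71, and Pearson's r between arrays of 1 group was 0.992 to 0.996 across probe sets. These are bulk samples, in which fewer cells of a type and less RNA per cell cannot be told apart.

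SRF binds a short DNA element called the CArG box. With actin-sensing partners of the MRTF family it drives cytoskeletal and smooth muscle genes, and with ternary complex factors it drives immediate early genes after serum. Actin polymerisation releases MRTF from monomeric actin, and cell tension and spreading bring YAP and its paralog TAZ (Wwtr1) into the nucleus, where they act through TEAD factors on genes such as Ccn1 and Ccn2. In brain, contractile genes such as Acta2 and Tagln are best known in the mural cells of vessels, and they also rise in many cell types spread on stiff plastic with serum.

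The promoter stretches of the members are shown because the genes are named for these regulators and moved together. RefSeq windows (GRCm38.p6) matched 6 of the 9 members, Acta2, Cnn1, Myl9, Tpm1, Tpm2 and Ccn1. Tagln, Actg2 and Ccn2 are named only. The stretches below hold the 250 bases before the annotated start of the 4 members with a match, 5′ to 3′ on the gene's strand, Myl9 at chr2:156775214-156775463 (+), Acta2 at chr19:34255374-34255623 (-), Tpm1 at chr9:67049214-67049463 (-) and Ccn1 at chr3:145649986-145650235 (-). Capitals mark a CArG box with at most 1 mismatch and the TEAD site GGAATG or its reverse complement CATTCC, both searched on either strand.
Myl9: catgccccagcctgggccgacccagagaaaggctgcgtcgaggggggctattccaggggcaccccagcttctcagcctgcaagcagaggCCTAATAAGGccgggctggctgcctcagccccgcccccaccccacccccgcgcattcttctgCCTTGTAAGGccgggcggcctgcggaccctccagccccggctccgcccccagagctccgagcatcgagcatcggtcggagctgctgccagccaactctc
Acta2: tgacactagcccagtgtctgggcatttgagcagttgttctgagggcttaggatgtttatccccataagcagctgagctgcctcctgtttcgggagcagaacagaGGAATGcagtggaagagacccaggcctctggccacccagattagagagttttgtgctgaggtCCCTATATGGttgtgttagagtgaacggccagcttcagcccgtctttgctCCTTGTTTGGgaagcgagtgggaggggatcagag
Tpm1: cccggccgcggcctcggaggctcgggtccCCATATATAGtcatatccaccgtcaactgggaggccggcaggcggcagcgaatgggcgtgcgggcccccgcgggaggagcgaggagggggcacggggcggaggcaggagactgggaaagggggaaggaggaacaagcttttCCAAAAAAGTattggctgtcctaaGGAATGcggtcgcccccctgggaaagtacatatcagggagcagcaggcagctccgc
Ccn1: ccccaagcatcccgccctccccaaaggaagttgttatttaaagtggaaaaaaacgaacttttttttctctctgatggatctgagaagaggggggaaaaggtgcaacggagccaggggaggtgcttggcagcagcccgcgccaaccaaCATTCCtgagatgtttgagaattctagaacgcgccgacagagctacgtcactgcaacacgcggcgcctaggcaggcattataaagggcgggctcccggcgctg

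Counted from the start, Myl9 held the exact CArG box CCTAATAAGG at -161 and CCTTGTAAGG, with 1 mismatch, at -99. Acta2 held CCCTATATGG at -84 and CCTTGTTTGG at -34, each with 1 mismatch, and GGAATG at -146. Tpm1 held CCATATATAG at -221 and CCAAAAAAGT at -80, each with 1 mismatch, and GGAATG at -56. Ccn1 held CATTCC at -103 and no CArG box by this search, and the stretches of Cnn1 and Tpm2 held neither motif. In 250-base stretches of all 32851 RefSeq windows, 1.47% held an exact CArG box, 18.6% one with up to 1 mismatch and 12.6% the TEAD site, against 1, 3 and 3 of the 6 members. No motif overlapped another. A match describes these letters only, and with 6 windows the counts say little beyond the genes themselves.

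Of the 9 genes, 8 fell and 0 rose against astrocytes in each of the other 4 states, and Actg2 was the exception throughout. A gene is said to fall or rise where limma's Benjamini-Hochberg adjusted p over all 19938 genes was under 0.05 and the log2 change was at least 1. Across all genes, 10.1% fell and 6.75% rose in day 6 cells, 8.1% and 6.49% in neural stem cells, 11.4% and 9.44% in astrocyte iPSCs, and 11.4% and 8.71% in MEF iPSCs. The median log2 change of the 9 genes was -2.36 in day 6 cells, -4.74 in neural stem cells, -2.22 in astrocyte iPSCs and -2.41 in MEF iPSCs, where the medians over all genes were 0.04, -0.03, 0.01 and 0.02. In 8 of the 9 genes all arrays of each other state lay below all astrocyte arrays, and in neural stem cells Actg2 did so too. The share of all genes with such a gap was 27.3% in day 6 cells, 32.3% in neural stem cells, 31.9% in astrocyte iPSCs and 30.8% in MEF iPSCs. These 4 comparisons share the 3 astrocyte arrays. Leaving out each array in turn kept 8 genes lower in day 6 cells and in neural stem cells, and 7 or 8 in the iPSC groups, with Tpm2 the gene at the limit.

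**Figure D1:**
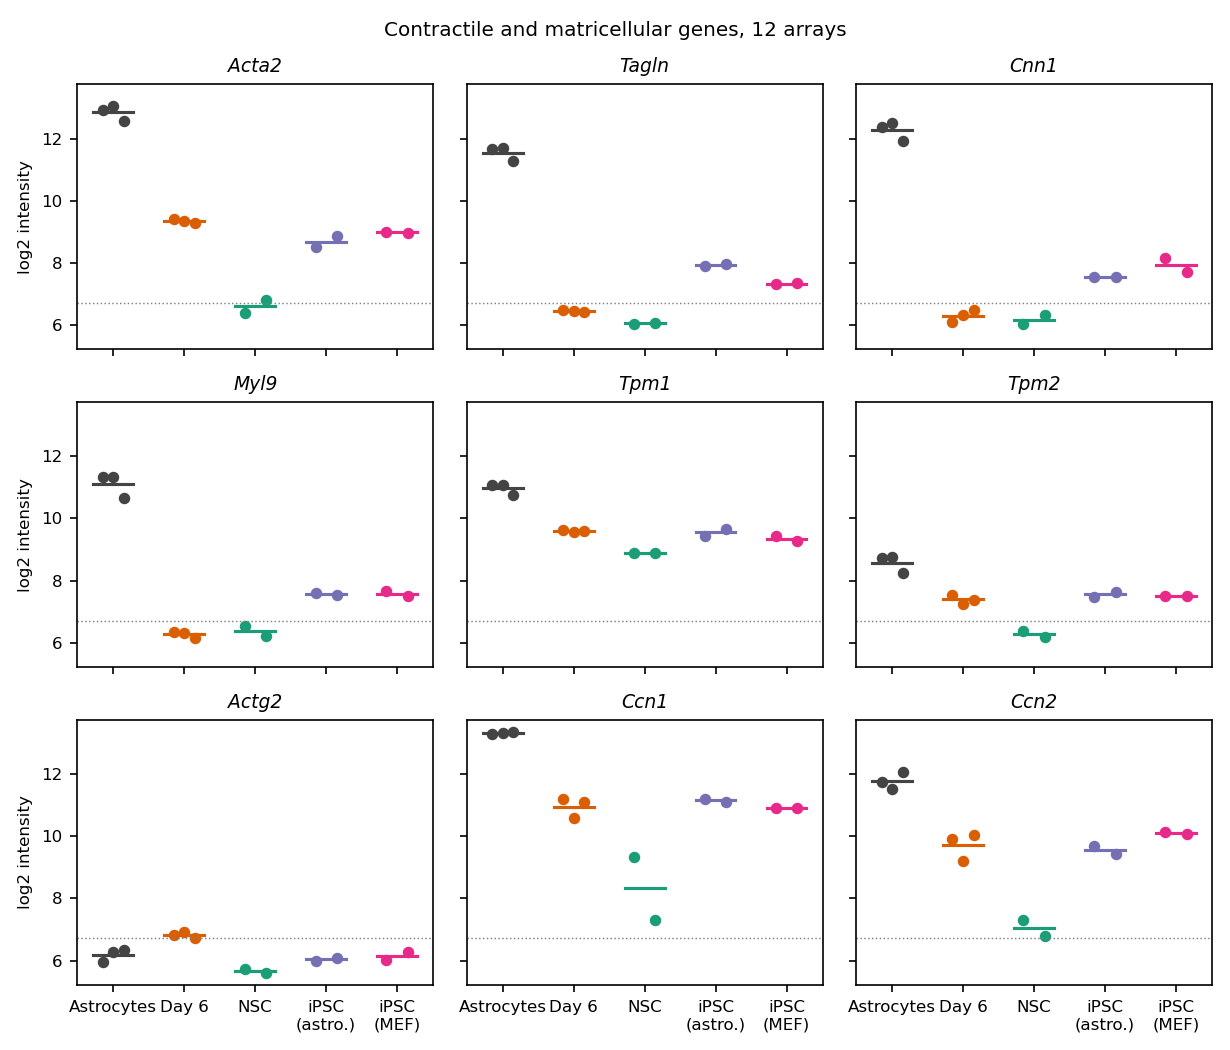
Log2 intensity of each of the 9 genes on the 12 arrays (points, 1 per array; bars, group means); the dotted line is the highest array median, 6.71. The 3 astrocyte arrays lie above all other arrays for every gene except Actg2.

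Acta2 encodes smooth muscle alpha-actin, the actin of vascular smooth muscle and of myofibroblast stress fibres. Its log2 intensity was 12.92, 13.05 and 12.55 in the astrocyte arrays and 9.40, 9.36 and 9.27 in the day 6 arrays. It was 6.38 and 6.82 in the neural stem cells, 8.50 and 8.86 in astrocyte iPSCs, and 8.99 and 8.97 in MEF iPSCs. No detection call was used here, so how much of a level near or under the array median is signal was not tested, and folds that reach such levels are those of the deposited values only. The groups formed 3 tiers without overlap, with astrocytes on top, the neural stem cells near the array median and the other 3 groups between. Acta2 fell by 3.49 ± 0.15 (limma SE) in day 6 cells, 11.3-fold (adjusted p = 3.7e-09). It fell by 6.24 ± 0.16 in neural stem cells, 75.6-fold (adjusted p = 2.9e-10). Its log2 change was -4.16 ± 0.16 in astrocyte iPSCs and -3.86 ± 0.16 in MEF iPSCs.

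Tagln encodes transgelin (SM22 alpha), an actin-bundling protein, and Cnn1 encodes calponin 1, which binds actin and restrains myosin. Tagln was 11.65, 11.71 and 11.27 in astrocytes, 6.48, 6.45 and 6.42 in day 6 cells and 6.04 and 6.07 in neural stem cells. It was 7.90 and 7.97 in astrocyte iPSCs and 7.31 and 7.35 in MEF iPSCs. Unlike Acta2, Tagln was below the array median in every day 6 array, where it fell by 5.09 ± 0.10 (adjusted p = 1.4e-11). Its log2 change was -5.49 ± 0.11 in neural stem cells (adjusted p = 6.2e-11), and it was smaller in size in astrocyte iPSCs (-3.61 ± 0.11) and MEF iPSCs (-4.21 ± 0.11). Cnn1 was 12.36, 12.50 and 11.93 in astrocytes, 6.11, 6.32 and 6.47 in day 6 cells and 6.03 and 6.31 in neural stem cells. It was 7.54 and 7.56 in astrocyte iPSCs and 8.15 and 7.72 in MEF iPSCs. Its change in day 6 cells was -5.97 ± 0.16, 62.5-fold (adjusted p = 1.2e-10), and its change in neural stem cells was -6.09 ± 0.18. Day 6 cells and neural stem cells overlapped in Cnn1, with a difference of 0.13 (95% interval -0.26 to 0.52).

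Myl9 encodes the regulatory myosin light chain of smooth muscle and non-muscle cells, whose phosphorylation switches on contraction. Myl9 was 11.33, 11.34 and 10.66 in astrocytes, 6.34, 6.32 and 6.14 in day 6 cells and 6.53 and 6.22 in neural stem cells. It was 7.61 and 7.55 in astrocyte iPSCs and 7.66 and 7.49 in MEF iPSCs. The order was that of Cnn1, with astrocytes high, both iPSC groups about level and the day 6 cells and neural stem cells below the array median and overlapping. Myl9 fell by 4.84 ± 0.16 in day 6 cells, 28.7-fold (adjusted p = 7.3e-10), and its change in neural stem cells was -4.73 ± 0.18. In the iPSCs it was -3.53 ± 0.18 and -3.54 ± 0.18. Astrocyte replicate 3 was the lowest astrocyte array for Acta2, Tagln, Cnn1, Myl9, Tpm1 and Tpm2 and the highest for Ccn1, Ccn2 and Actg2.

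Actg2 encodes enteric smooth muscle gamma-actin and did not follow the other contractile genes. It was 5.96, 6.26 and 6.34 in astrocytes, 6.82, 6.92 and 6.73 in day 6 cells and 5.72 and 5.60 in neural stem cells. It was 5.98 and 6.09 in astrocyte iPSCs and 6.02 and 6.29 in MEF iPSCs. The day 6 arrays lay above and the neural stem cell arrays below all others, in a range of levels close to or under the array median. Neither difference from astrocytes reached the fold limit, with 0.64 ± 0.11 in day 6 cells (adjusted p = 3.0e-04) and -0.53 ± 0.12 in neural stem cells (adjusted p = 0.003). The direct difference of day 6 cells from neural stem cells did, at 1.16 ± 0.12 (adjusted p = 1.3e-05).

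Tpm1 and Tpm2 encode tropomyosins, coiled-coil proteins that lie along actin filaments and set which motors and severing proteins can bind. Tpm1 was 11.06, 11.06 and 10.77 in astrocytes, 9.63, 9.56 and 9.58 in day 6 cells and 8.88 and 8.89 in neural stem cells. It was 9.44 and 9.66 in astrocyte iPSCs and 9.42 and 9.28 in MEF iPSCs. Tpm1 stayed well above the array median in all 12 arrays. Its log2 changes were -1.38 ± 0.09 in day 6 cells (adjusted p = 1.2e-07), -2.08 ± 0.10 in neural stem cells, -1.41 ± 0.10 in astrocyte iPSCs and -1.61 ± 0.10 in MEF iPSCs. Tpm2 was 8.73, 8.75 and 8.23 in astrocytes, 7.55, 7.25 and 7.38 in day 6 cells and 6.38 and 6.17 in neural stem cells. It was 7.48 and 7.63 in astrocyte iPSCs and 7.51 on both MEF iPSC arrays. Only the neural stem cells were below the array median, and the day 6 cells overlapped both iPSC groups. The log2 change of Tpm2 was -1.18 ± 0.13 in day 6 cells (adjusted p = 1.3e-05) and -2.29 ± 0.15 in neural stem cells. Its changes in astrocyte iPSCs (-1.02 ± 0.15, adjusted p = 9.9e-05) and MEF iPSCs (-1.06 ± 0.15) lay at the fold limit. The astrocyte iPSC value was -0.94, -0.93 and -0.94 without astrocyte replicate 1, astrocyte replicate 2 or astrocyte iPSC replicate 1, and the MEF iPSC value was -0.98 and -0.97 without astrocyte replicate 1 or 2, each short of the limit.

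Ccn1 and Ccn2 encode secreted matricellular proteins that bind integrins and are widely used transcriptional readouts of YAP and TEAD. Ccn1 was 13.30, 13.31 and 13.35 in astrocytes, 11.19, 10.57 and 11.10 in day 6 cells and 9.32 and 7.32 in neural stem cells. It was 11.19 and 11.11 in astrocyte iPSCs and 10.91 and 10.92 in MEF iPSCs. The spread between the neural stem cell arrays (SD 1.41, n = 2) was the widest of any member in any group, and both arrays were still below all other arrays. Replicate 2 was also the lower neural stem cell array for Fos, an immediate early gene, at 6.89 against 8.88. The log2 change of Ccn1 was -2.36 ± 0.37 in day 6 cells (adjusted p = 1.9e-04) and -5.00 ± 0.42 in neural stem cells, 32-fold (adjusted p = 1.4e-06). The latter was -5.99 without neural stem cell replicate 1 and -4.00 without replicate 2, a called fall in both. It was -2.17 ± 0.42 in astrocyte iPSCs and -2.41 ± 0.42 in MEF iPSCs. Ccn2 was 11.76, 11.52 and 12.05 in astrocytes, 9.90, 9.19 and 10.05 in day 6 cells and 7.29 and 6.78 in neural stem cells. It was 9.68 and 9.44 in astrocyte iPSCs and 10.15 and 10.08 in MEF iPSCs. As for Ccn1, the neural stem cells were lowest, and the day 6 arrays overlapped those of the astrocyte iPSCs. Its log2 change was -2.06 ± 0.22 in day 6 cells (adjusted p = 6.5e-06) and -4.74 ± 0.24 in neural stem cells, 26.7-fold (adjusted p = 3.3e-08). It was -2.22 ± 0.24 in astrocyte iPSCs and -1.66 ± 0.24 in MEF iPSCs.

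**Figure D2:**
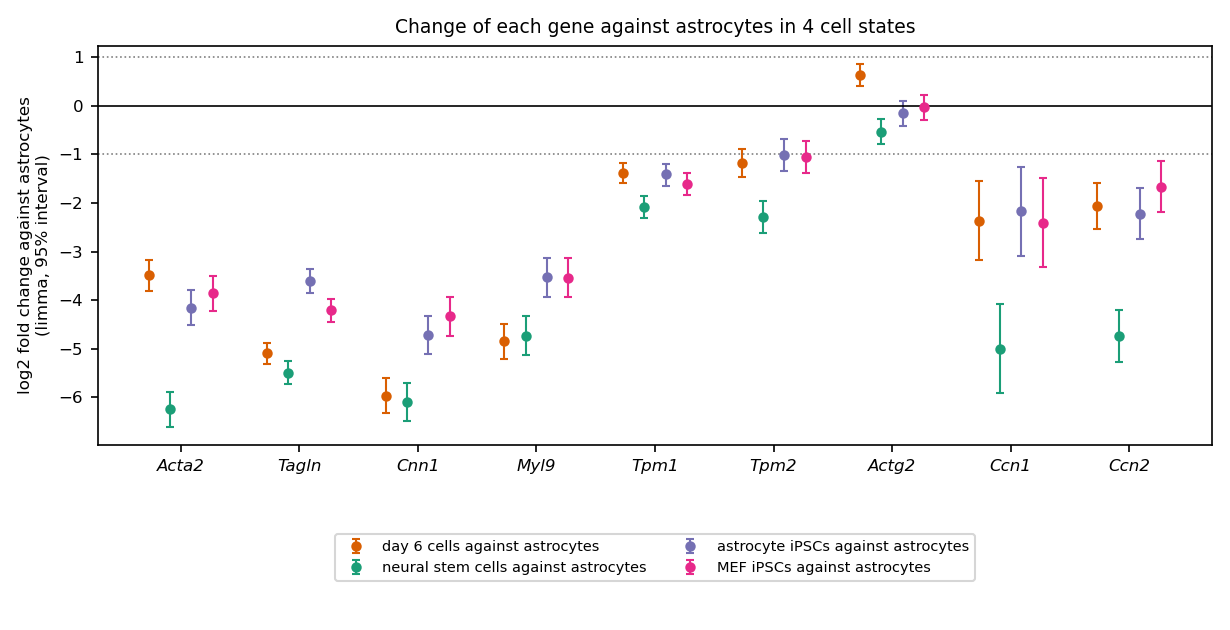
Log2 change of each gene against astrocytes in the 4 other states, with 95% intervals from limma; dotted lines mark the limit of 1 in either direction. Acta2, Tpm1, Tpm2, Ccn1 and Ccn2 lie lowest in neural stem cells, and Cnn1 and Myl9 lie about equally low in day 6 cells and neural stem cells. Tagln lies at -5.09 in day 6 cells and -5.49 in neural stem cells, and Actg2 stays inside the limit.

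Day 6 cells were also compared with neural stem cells directly. Of the 9 genes, 5 were higher in day 6 cells and 0 lower, where 2.94% of all genes were higher and 5.94% lower. Ccn2 was higher by 2.68 ± 0.24 (6.39-fold, adjusted p = 4.9e-06), Acta2 by 2.75 ± 0.16 (6.71-fold, adjusted p = 1.6e-07) and Ccn1 by 2.63 ± 0.42 (adjusted p = 3.8e-04). The Ccn1 difference was 3.63 without neural stem cell replicate 1 and 1.64 without replicate 2. Tpm2 was higher by 1.12 ± 0.15 and Actg2 by the 1.16 given above. The other 4 did not pass, with Tpm1 at 0.70 ± 0.10, Tagln at 0.39 ± 0.11, Cnn1 at 0.13 ± 0.18 and Myl9 at -0.11 ± 0.18.

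Against day 6 cells, astrocyte iPSCs had 3 members higher and 0 lower, where 3.29% of all genes were higher and 2.82% lower. These were Tagln at 1.49 ± 0.11 (adjusted p = 1.5e-06), Myl9 at 1.31 ± 0.18 (adjusted p = 2.0e-04) and Cnn1 at 1.25 ± 0.18 (adjusted p = 2.4e-04). MEF iPSCs had 2 members higher than day 6 cells and 0 lower, where 3.18% of all genes were higher and 2.93% lower, namely Cnn1 at 1.63 ± 0.18 and Myl9 at 1.31 ± 0.18, while Tagln was at 0.88 ± 0.11. In the other direction, short of the limit, Actg2 was at -0.78 ± 0.12 in astrocyte iPSCs (adjusted p = 3.8e-04) and -0.67 ± 0.12 in MEF iPSCs (adjusted p = 0.001), and Acta2 at -0.66 ± 0.16 and -0.37 ± 0.16. The differences of Ccn1 and Ccn2 from day 6 cells had intervals that held 0 in both iPSC groups. The 3 genes above are those that were under the array median in day 6 cells.

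The iPSC groups in which Cnn1 and Myl9, and in astrocyte iPSCs Tagln, were higher than in day 6 cells also had higher levels of genes of the feeder cell type. Of 18 fibroblast and feeder markers, 10 were higher and 0 lower in astrocyte iPSCs than in day 6 cells, and 7 higher and 1 lower in MEF iPSCs, with medians of 1.26 and 0.80 where all genes had -0.03 and -0.02. Dcn, the matrix proteoglycan decorin, was 6.31 to 6.54 in day 6 cells, 10.48 and 11.26 in astrocyte iPSCs and 10.03 and 9.92 in MEF iPSCs. The summed intensity of the 18 markers was 2425 to 2586 in day 6 cells, 5408 to 8933 in astrocyte iPSCs and 4789 to 5131 in MEF iPSCs, and Ogn, Islr, Dpt, Twist1 and Foxc1 were not above the array median in either iPSC group. The part of feeder RNA in the iPSC values of the members was not tested.

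Between the iPSC groups, 0 of the 9 members passed, where 0.742% of all genes did. At limma's unadjusted p under 0.05 there was 1, Tagln, at -0.61 ± 0.12 in MEF against astrocyte iPSCs (adjusted p = 0.014). The other members had adjusted p values of 0.327 or more. The interval of the difference was -0.09 to 0.69 for Acta2, -0.02 to 1.14 for Ccn2 and -1.24 to 0.77 for Ccn1, so the intervals of both CCN genes reached past the fold limit. Against neural stem cells, 7 of 9 members were higher in astrocyte iPSCs and 7 of 9 in MEF iPSCs, where 5.03% and 4.63% of all genes were. Tpm1 (0.67 and 0.47) and Actg2 (0.38 and 0.50) did not reach the limit in either. Ccn1 values against neural stem cells were 2.83 ± 0.45 and 2.59 ± 0.45, with 3.82 and 3.59 without neural stem cell replicate 1 and 1.83 and 1.60 without replicate 2.

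Leaving Actg2 aside, the members rose and fell together over the 12 arrays, with pairwise Pearson's r of 0.78 to 0.99. The arrays fall into 5 groups with astrocytes far apart, so r mainly describes the group means. The closest pairs were Cnn1 with Myl9, Tagln with Cnn1 and Tagln with Myl9 (0.99 each), followed by Acta2 with Tpm1 (0.98) and Ccn1 with Ccn2 (0.97), and the least alike were Myl9 and Ccn2 (0.78). Actg2 had r between -0.16 and 0.37 with the other members. Among 1185 genes with an SD of at least 1 over the 12 arrays, those most like the mean centred profile of the 9 genes were Pcsk6 (r = 0.994), Sdc4 (0.991), Vwa5a (0.986), Thbs1 (0.982), Ctsd (0.982), Cnn2 (0.978), Pdgfrl (0.978), Pltp (0.977), Thy1 (0.977) and Man2b2 (0.976). Thbs1, the matricellular protein thrombospondin 1, had group means of 12.85 in astrocytes, 8.43 in day 6 cells, 7.20 in neural stem cells, 9.82 in astrocyte iPSCs and 9.60 in MEF iPSCs. Actg2 was most like Dock5 (0.947), a guanine nucleotide exchange factor for Rac.

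Close relatives of the members followed in part. Of 13 measured contractile paralogs, 4 fell in day 6 cells, 4 in neural stem cells and 6 in each iPSC group, and 0 rose, with medians of -0.62, -0.55, -0.89 and -0.59. Cnn2, calponin 2, was the paralog with the deepest falls (-3.21 ± 0.15 in day 6 cells, -4.23 ± 0.17 in neural stem cells, -2.04 ± 0.17 and -2.35 ± 0.17 in the iPSCs). Cnn3 and the light chain genes Myl6 and Myl12a fell in all 4 states as well. The sarcomeric actins Acta1 (7.44 to 8.08 over all arrays) and Actc1 (7.46 to 8.23) did not pass in any state, and the cytoplasmic actin Actb stayed between 13.12 and 13.61. Thus among these actins a change from astrocytes beyond the limit was seen for Acta2 and not for Acta1, Actc1, Actb or Actg2. Short of the limit, at limma's unadjusted p under 0.05, Actb differed from astrocytes in all 4 states. By the same measure Acta1 differed in all but astrocyte iPSCs, and Actc1 in all but day 6 cells. How far near-identical actin sequences share probes was not tested. Of the 4 other CCN family genes, Ccn3, a matricellular growth regulator, fell in all 4 states (-2.85 ± 0.24 in day 6 cells, -1.98 ± 0.27 in astrocyte iPSCs). Ccn5 fell in day 6 cells (-1.04 ± 0.12) and neural stem cells (-1.20 ± 0.14). The count of CCN family genes that fell in day 6 cells was 1 in place of 2 without astrocyte replicate 3, without day 6 replicate 1 or with array weights.

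Lower levels were also found among other genes known to depend on SRF with MRTF. Of 24 cytoskeletal targets of SRF and MRTF outside the members, 14 fell and 0 rose in day 6 cells, 15 and 0 in neural stem cells, 10 and 1 in astrocyte iPSCs and 12 and 2 in MEF iPSCs, with medians of -1.06, -1.43, -0.80 and -0.93. Fhl1, a LIM-domain protein, changed by -4.03 ± 0.08 in day 6 cells and -1.93 ± 0.09 in neural stem cells, and was the lower in day 6 cells (-2.10 ± 0.09 against neural stem cells). Actn1, the actin crosslinker alpha-actinin 1, changed by -2.51 ± 0.09 and -3.06 ± 0.10 in these states, Palld (palladin) by -2.68 ± 0.12 and -3.02 ± 0.13, and Cald1 (caldesmon) by -2.24 ± 0.11 and -2.79 ± 0.12. Csrp2 rose in the iPSCs (2.17 ± 0.08 and 2.19 ± 0.08), and Des (desmin) rose in MEF iPSCs (1.39 ± 0.08). Of 12 immediate early genes driven by SRF with ternary complex factors, 8 fell and 0 rose in day 6 cells, 9 and 1 in neural stem cells, and 6 and 0 in each iPSC group. Fosb, a subunit of the AP-1 transcription factor, changed by -2.87 ± 0.30 in day 6 cells and -4.55 ± 0.33 in neural stem cells, and Fos by -2.78 ± 0.40 and -4.02 ± 0.45.

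Of 20 YAP and TEAD targets outside the members, 14 fell in each of the 4 states, with medians of -1.69, -1.78, -1.78 and -1.73. Ccdc80, a matrix protein, changed by -3.70 ± 0.12 in day 6 cells and -3.80 ± 0.14 in neural stem cells. F3, tissue factor, changed by -3.73 ± 0.13 and -4.55 ± 0.14, Crim1 by -3.19 ± 0.08 and -3.13 ± 0.09, and Lats2, the kinase that inhibits YAP, by -2.40 ± 0.10 and -3.17 ± 0.11. In day 6 cells 2 targets rose, the ecto-nucleotidase gene Nt5e (2.59 ± 0.12) and Dock5 (2.23 ± 0.09), in neural stem cells 1 rose, Fjx1 (1.06 ± 0.10), and in the iPSCs 0 rose. Lats2 was lower still in astrocyte iPSCs than in day 6 cells (-1.17 ± 0.11), whereas the intervals of Ccn1 and Ccn2 held 0 there.

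**Figure D3:**
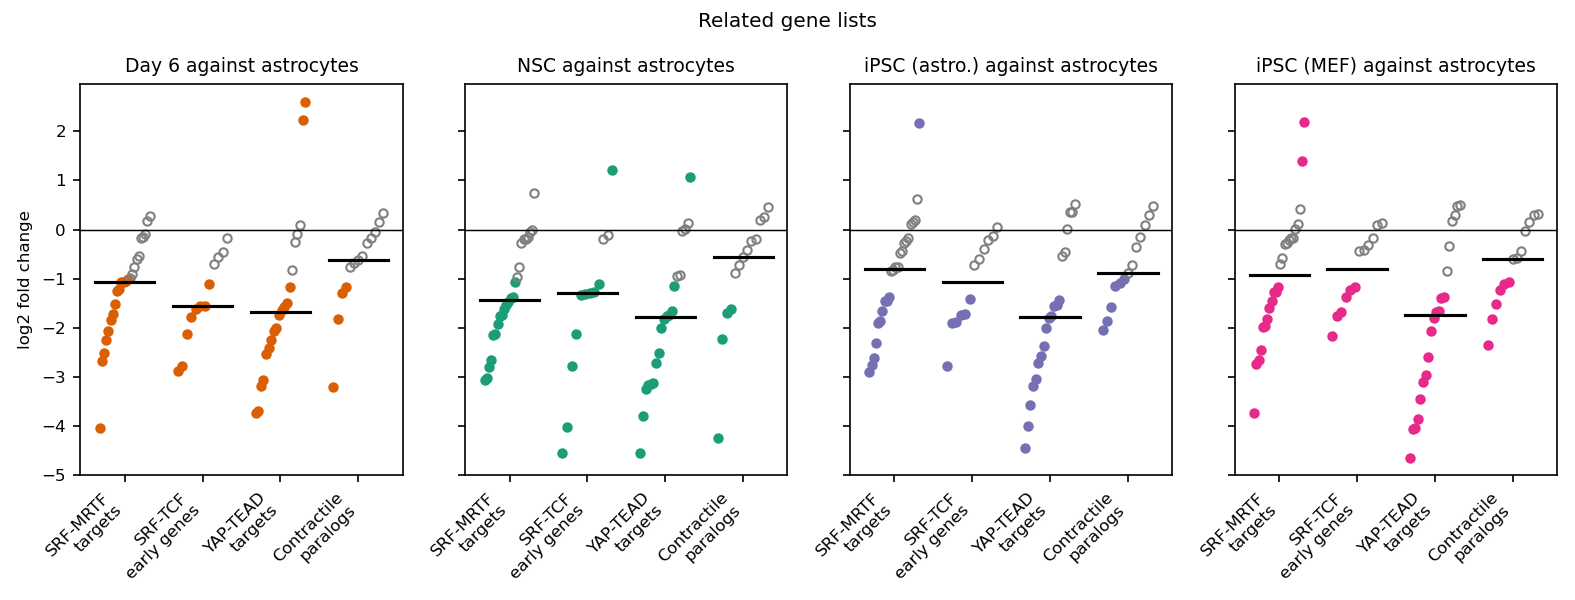
Log2 change against astrocytes for genes of 4 lists outside the members (points, 1 per gene; black bars, medians), filled where the gene passed the test and open where it did not, with 1 panel per state. The medians of all 4 lists are below 0 in each state, from -0.55 for the contractile paralogs in neural stem cells to -1.78 for YAP and TEAD targets in neural stem cells and astrocyte iPSCs.

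The transcripts of the regulators themselves were measured too. Of 7 genes for SRF and its cofactors, 0 passed in day 6 cells or in neural stem cells, with medians of -0.02 and 0.01. At limma's unadjusted p under 0.05, 3 were lower and 3 higher in day 6 cells, and 3 lower and 1 higher in neural stem cells. In the iPSCs 1 fell in astrocyte iPSCs and 2 in MEF iPSCs, the latter 1 with the mean of each gene's probe sets. Srf was 9.09, 9.01 and 8.62 in astrocytes and 8.93, 8.93 and 8.79 in day 6 cells, a difference of -0.02 ± 0.12. Myocd, the smooth muscle cofactor myocardin, was below the array median on all 12 arrays. Mrtfb changed by -0.56 ± 0.07 in day 6 cells (adjusted p = 4.7e-05), short of the limit, and by -1.76 ± 0.08 in MEF iPSCs, where it passed. Mrtfb was also the only gene of this list called between the iPSC groups, lower in MEF iPSCs. With the mean of each gene's probe sets that call was lost. Elk3, a ternary complex factor, fell in MEF iPSCs (-1.33 ± 0.11) and, at the limit, in astrocyte iPSCs, and the latter call was lost without astrocyte replicate 1, astrocyte replicate 2 or astrocyte iPSC replicate 1 and with the replicate block.

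Yap1 was 9.30 to 9.44 in astrocytes and 9.53 to 9.67 in day 6 cells (0.19 ± 0.07) and did not pass in any state. Wwtr1, which encodes TAZ, was 10.03 to 10.28 in astrocytes and changed by -1.44 ± 0.10 in neural stem cells and by -1.75 ± 0.10 and -1.35 ± 0.10 in the iPSCs, with -0.92 ± 0.09 in day 6 cells. Of 19 measured YAP, TEAD and Hippo genes, 5 fell and 3 rose in day 6 cells, 3 and 1 in neural stem cells, and 7 and 1 in each iPSC group. Tead2 rose in all 4 states (1.75 ± 0.09 in day 6 cells, 2.24 ± 0.10 in neural stem cells), while Tead1 fell in day 6 cells (-1.71 ± 0.09) and in the iPSCs. Tead4 rose in day 6 cells (1.56 ± 0.14, adjusted p = 2.3e-06), where it was 9.28, 8.63 and 8.71 against 7.28 to 7.37 in astrocytes. The TEAD cofactor gene Vgll3 fell in all 4 states (-2.66 ± 0.18 in day 6 cells, -3.62 ± 0.20 in neural stem cells), and so did Wwc1 (KIBRA).

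**Figure D4:**
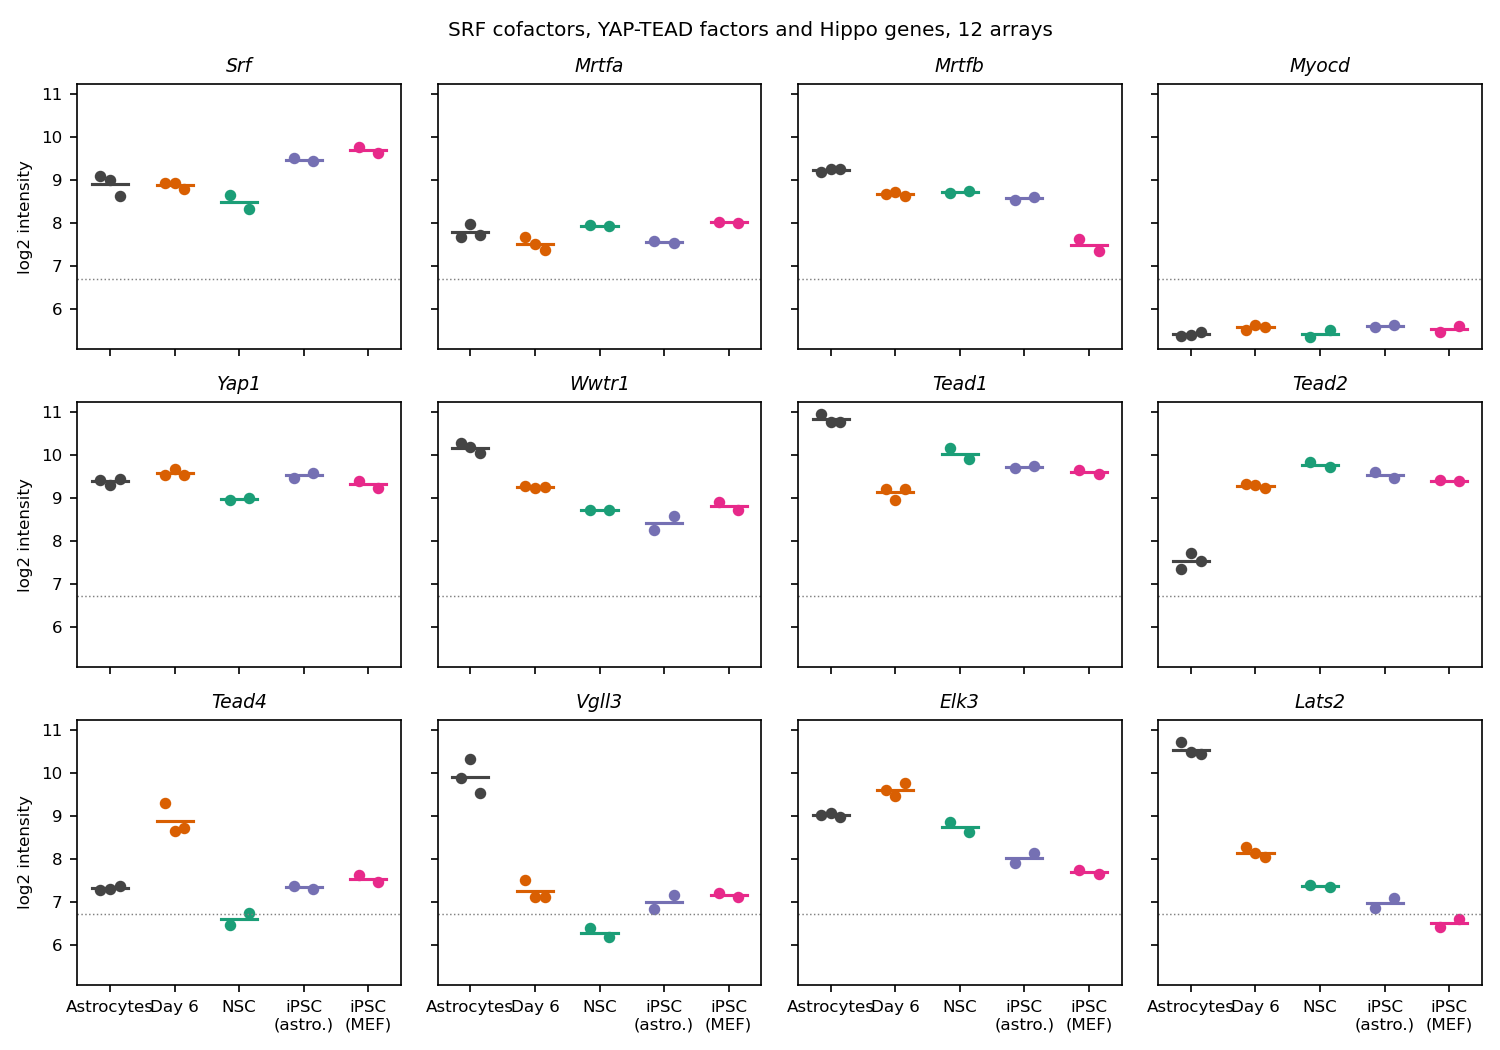
Log2 intensity on the 12 arrays (points, 1 per array; bars, group means) of SRF and its cofactors, YAP, TAZ, TEAD genes, Vgll3 and Lats2; the dotted line is the highest array median, 6.71. Srf and Yap1 lie within a narrow range in astrocytes and day 6 cells, whereas Tead1, Vgll3 and Lats2 are highest in astrocytes and Tead4 in day 6 cells.

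TGF-beta is a pathway that induces Acta2, Tagln and Ccn2 in many cells. Of 16 TGF-beta ligands, receptors and targets, 8 fell and 0 rose in day 6 cells, and 9 and 1 in neural stem cells. The counts were 7 and 2 in astrocyte iPSCs and 7 and 1 in MEF iPSCs. The median log2 change was below 0 in day 6 cells and -1.45 in neural stem cells, but 0.08 in astrocyte iPSCs and 0.05 in MEF iPSCs. At limma's unadjusted p under 0.05, 12 were lower and 1 higher in day 6 cells, and 15 and 1 in neural stem cells. By the same measure 7 were lower and 7 higher in each iPSC group. Thbs1 changed by -4.42 ± 0.12 in day 6 cells and -5.65 ± 0.13 in neural stem cells, the ligand gene Tgfb3 by -3.90 ± 0.14 and -4.07 ± 0.15, and Fn1 (fibronectin) by -2.46 ± 0.12 and -4.17 ± 0.13. Bgn (biglycan) was 10.54, 11.16 and 11.23 in astrocytes, 6.09 to 6.21 in day 6 cells and 10.75 to 11.24 in the 4 iPSC arrays, so that its difference from astrocytes was 0.02 ± 0.30 in astrocyte iPSCs.

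Markers of other cell types that express the members were measured in the astrocyte arrays. Of 12 smooth muscle markers, 6 lay above the array median in every astrocyte array, where 52.2% of all genes did. Myh11, Des, Myocd, Pln, Kcnmb1 and Itga8 did not. Myh11, the smooth muscle myosin heavy chain and the most specific of these, was 6.54 to 6.60 in astrocytes and 6.42 to 6.58 in day 6 cells. The summed intensity of the 12 was 4185 to 4858 in astrocytes, 1247 to 1313 in day 6 cells, 1691 to 1711 in neural stem cells, 1448 to 1553 in astrocyte iPSCs and 1578 to 1599 in MEF iPSCs. Hspb6 (11.43 to 11.73 in astrocytes) made up most of the astrocyte sum, and Hspb6 and Synpo2 fell in all 4 states. Against astrocytes 2 of the 12 fell and 0 rose in day 6 cells, 3 and 0 in neural stem cells, and 2 and 1 in each iPSC group. The medians were -0.08, -0.27, -0.09 and -0.10. Of 9 pericyte markers, 3 lay above the median in astrocytes, and Rgs5 and Kcnj8 did not. Only Pdgfrb fell, and it did so in all 4 states (-2.84 ± 0.14 in day 6 cells). Cspg4 rose in neural stem cells, a call lost without astrocyte replicate 1 or neural stem cell replicate 2. Anpep rose in both iPSC groups. The medians of the 9 were -0.10 in day 6 cells, -0.06 in neural stem cells, 0.02 in astrocyte iPSCs and 0.04 in MEF iPSCs.

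Of 18 fibroblast markers, 12 lay above the median in every astrocyte array, where 52.2% of all genes did. Their summed intensity, over all 18, was 14640 to 16125 against 2425 to 2586 in day 6 cells and 3978 to 4118 in neural stem cells. Ogn, the proteoglycan osteoglycin of meningeal and other fibroblasts, was 12.12 to 12.37 in astrocytes and 4.85 to 5.57 in all other arrays, Islr was 11.79 to 12.04 against 5.96 to 6.97, and Thy1 11.70 to 11.87 against 6.52 to 8.46. Ogn, Islr and Thy1 together made up most of the astrocyte sum. Lum, Pdgfra, Twist1, Twist2, Dpt and Postn were not above the median in every astrocyte array. Dcn was 6.88, 6.81 and 8.48 in astrocytes, highest in replicate 3. Against astrocytes 7 of the 18 fell and 0 rose in day 6 cells, 7 and 3 in neural stem cells, 4 and 8 in astrocyte iPSCs and 4 and 7 in MEF iPSCs. The part of other cells in the astrocyte levels of the members was not tested.

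**Figure D5:**
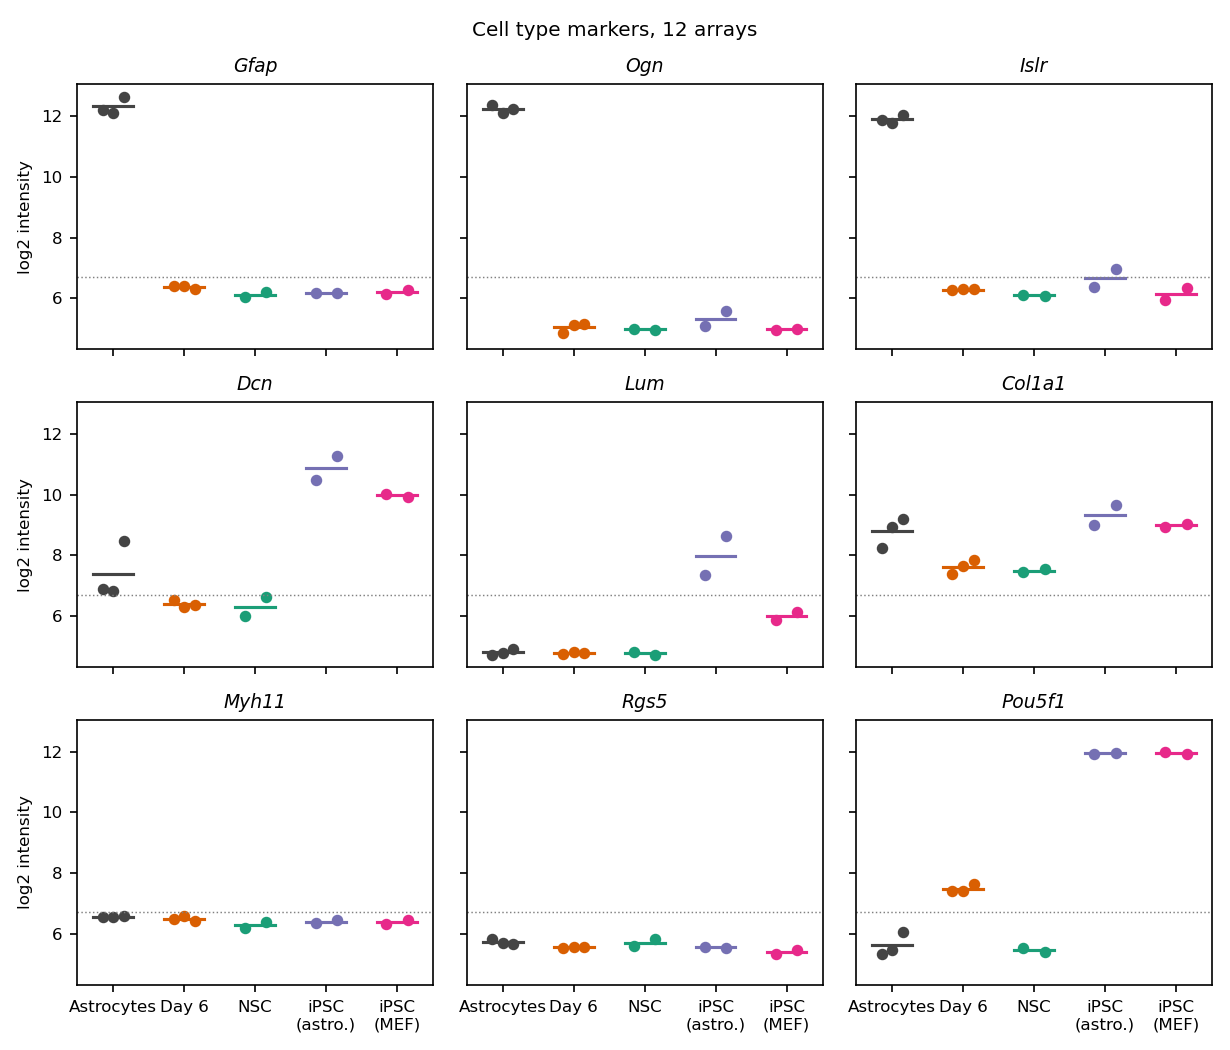
Log2 intensity on the 12 arrays (points, 1 per array; bars, group means) of Gfap, 5 fibroblast markers, Myh11, the pericyte marker Rgs5 and Pou5f1; the dotted line is the highest array median, 6.71. Ogn and Islr are high only in the astrocyte arrays, Dcn and Lum are highest in the iPSC arrays grown on feeders, and Myh11 and Rgs5 lie below the line throughout.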

How the data were processed

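RNA of 12 samples in 5 groups was hybridised to Mouse Gene 1.0 ST arrays. The deposited values are probe set intensities on a linear scale from robust multi-array averaging (RMA), which corrects background and normalizes between arrays, per the submitters' processing notes. The version of RMA was not given. Intensities ran from 20.2 to 15436, with array medians of 97.9 to 104.9, and log2 was taken first. No source states whether a constant was added before deposit, and one would shrink differences of dim genes. The number of arrays limits the precision.

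Of 28853 probe sets, 21789 carry 1 gene symbol in the platform annotation, 1621 several and 5443 none. Each of 19938 genes is represented by its single-gene probe set of highest mean. No filter on dim genes was used. Differences came from limma 3.58.1 (R 4.3.3, lmFit and eBayes) with a mean for each of the 5 groups and 7 residual degrees of freedom. p-values were adjusted by Benjamini-Hochberg over 19938 genes, and the script was tested on simulated data.

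All 9 members are named, and of other lists up to 4 genes with the largest change against astrocytes, or any gene of the paralog, CCN, SRF and YAP-TEAD component lists. Further genes named were chosen after their values were seen. Members and lists were chosen with earlier results of these data known. The result of 1 further gene list is not reported here. The alternatives were probe set means, all probe sets, a dim filter, cyclic loess, median centring, 16 subtracted before log2, the 2 groups alone, a trended and robust eBayes, weights per array, a stricter adjusted p (0.01), dropping the fold limit, a block on replicate number, and dropping each array in turn. The CArG search with a mismatch at any position was added after the sequences were seen. Tables were made with pandas 2.3.3 and numpy 2.4.6 in Python 3.11.15, and figures with matplotlib 3.10.9.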

Additional observations from a re-analysis of the deposited data

Results flagged for a closer look

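Actg2 moved in opposite directions from the astrocytes in 2 states. All 3 day 6 arrays (6.73 to 6.92) lay above the astrocyte arrays (5.96 to 6.34), and both neural stem cell arrays (5.60 and 5.72) lay below them. The difference of day 6 cells from neural stem cells was 1.16 ± 0.12 on the log2 scale (limma, adjusted p = 1.3e-05). The levels are close to or under the array median.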

How the results depend on the processing

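The 90 log2 changes of the members (9 genes, 10 comparisons) were recomputed under 24 settings, 2160 values in all, of which 2125 kept their direction and side of the threshold, 5 lost the call, 14 gained it and 16 changed sign. None of the 16 was a called change. With the replicate number as a block, Myl9 in day 6 cells against neural stem cells was 0.04 in place of -0.11 and Ccn1 in MEF iPSCs against day 6 cells was 0.00 in place of -0.04. With arrays centred on the median, Myl9 in MEF against astrocyte iPSCs was 0.00 in place of -0.00. Leaving out 1 array at a time gave -0.17 to 0.10 for Actg2 in MEF iPSCs against astrocytes. In day 6 cells against neural stem cells it gave -0.01 to 0.27 for Cnn1 and -0.26 to 0.04 for Myl9. Against day 6 cells it gave -0.42 to 0.01 for Ccn2 and -0.15 to 0.08 for Tpm1 in astrocyte iPSCs, and -0.23 to 0.08 for Ccn1 in MEF iPSCs. Between the iPSC groups it gave -0.09 to 0.08 for Myl9, -0.12 to 0.03 for Tpm2 and -0.02 to 0.25 for Actg2. The cause was not tested. The 5 lost calls were those of Tpm2 given in the report.

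Without a fold limit, the members called were 5 in place of 3 for astrocyte iPSCs against day 6 cells, 4 in place of 2 for MEF iPSCs against day 6 cells, and 1 in place of 0 between the iPSC groups. Of all genes, that setting called 9755 in place of 3360 in day 6 cells against astrocytes, 9144 in place of 2907 for neural stem cells, 10173 in place of 4154 for astrocyte iPSCs and 10017 in place of 4011 for MEF iPSCs. It called 7655 in place of 1771 in day 6 cells against neural stem cells, 5896 in place of 1218 for astrocyte iPSCs and 5932 in place of 1219 for MEF iPSCs against day 6 cells, 8441 in place of 2500 and 8251 in place of 2409 for the iPSCs against neural stem cells, and 1150 in place of 148 between the iPSC groups. With 16 subtracted before log2, Tagln in MEF iPSCs against day 6 cells was 1.02 and passed. Leaving out arrays gave 7 to 8 members called in each iPSC group against astrocytes and the same count in every other comparison. Of 4080 counts over the lists, 171 moved by over 1.5 times, 102 of them without a fold limit.

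Replicate numbers recur across groups. Over 21 same-numbered pairs the correlation of deviations from group means was -0.10 to 0.41, with 11 above 0.1. The highest, 0.40 to 0.41, were between the arrays numbered 1 of astrocytes, day 6 cells and MEF iPSCs. Of 12 arrays, 7 correlated best with their own number. In a group of 2 arrays the deviations mirror each other, so these pairs are not independent. Whether the numbers mark pairs was not settled by these values, and the main fit did not use the numbers. With the block, the count of members called was the same in all 10 comparisons, at 8 in each of those against astrocytes.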
